A study of Mus musculus with 4 samples.

Results

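Cholesterol balance in the small intestine was followed here through 30 mouse genes, chosen by name for their known roles. They comprised 18 enzymes of cholesterol synthesis, 4 genes of sterol sensing, 1 intracellular sterol carrier, and 7 genes of cholesterol absorption, uptake and efflux. Not every gene of these pathways is in the list. All 30 had a probe on the array, and all 30 were well above background on both arrays of both groups, so that no gene was lost to the filter on dim probes. They stand among 21648 genes and transcripts tested. RNA came from the ileum, the last stretch of the small intestine, of 10-week-old male C57BL/6J mice. In the metformin group the mice had received metformin, a biguanide that lowers blood glucose, by mouth at 1000 mg/kg. The control samples are named only as control, although the protocol text on metformin dosing stands in all 4 records, and neither a vehicle nor the duration of dosing is stated. Each group had 2 samples, and values of the control pair are given in the order control 1, control 2. The labels do not say whether these are separate animals, so the p-values measure only the spread between samples, which may be technical.

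Cells make cholesterol from acetyl-CoA through mevalonate, isoprenoid intermediates, squalene and lanosterol. When sterols in the endoplasmic reticulum run low, SCAP escorts the transcription factor SREBP2 to the Golgi, where it is cut and released to switch on the synthesis genes, while INSIG proteins hold SCAP back when sterols are plentiful. Enterocytes also take up cholesterol from the gut lumen, esterify it for export in lipoproteins, and pump sterols out again, and oxysterol-activated LXR raises the efflux genes.

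Promoter windows of 4 of the genes, from the synthesis and the efflux lists, are shown first. Whether their motifs bear on the levels of these genes was not tested. The windows are RefSeq sequence of build GRCm38.p6, 250 bases before to 50 bases after an annotated start, read in the direction of the gene. Capitals mark exact matches on either strand to CACNCCAC, where N is any letter, or to CCAAT, the box bound by NF-Y. CACNCCAC is a core form of the sterol regulatory element, and ATTGG is CCAAT of the other strand. The synthase gene Hmgcs1 lies on the plus strand at chr13:119690101-119690400, the demethylase gene Cyp51 on the minus strand at chr5:4104648-4104947, the exporter gene Abca1 on the minus strand at chr4:53159846-53160145, and a start of the exporter gene Abcg8 on the plus strand at chr17:84682871-84683170.
Hmgcs1: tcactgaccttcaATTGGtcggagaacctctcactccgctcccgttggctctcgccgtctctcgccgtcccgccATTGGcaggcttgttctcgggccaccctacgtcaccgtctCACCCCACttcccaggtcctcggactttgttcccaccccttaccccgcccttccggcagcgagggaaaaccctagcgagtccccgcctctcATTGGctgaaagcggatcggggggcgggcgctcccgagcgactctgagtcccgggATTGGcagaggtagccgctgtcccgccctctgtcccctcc
Cyp51: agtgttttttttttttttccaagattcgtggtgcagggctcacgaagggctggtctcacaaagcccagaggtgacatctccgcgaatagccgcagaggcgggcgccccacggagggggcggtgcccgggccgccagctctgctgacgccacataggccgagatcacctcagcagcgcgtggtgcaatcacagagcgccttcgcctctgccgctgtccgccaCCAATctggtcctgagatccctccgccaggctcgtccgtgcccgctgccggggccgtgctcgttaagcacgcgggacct
Abca1: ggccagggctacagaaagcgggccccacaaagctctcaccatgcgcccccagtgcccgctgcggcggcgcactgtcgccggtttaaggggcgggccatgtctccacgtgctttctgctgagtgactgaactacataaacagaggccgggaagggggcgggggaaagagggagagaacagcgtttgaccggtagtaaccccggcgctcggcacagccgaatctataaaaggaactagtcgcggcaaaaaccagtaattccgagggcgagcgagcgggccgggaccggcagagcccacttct
Abcg8: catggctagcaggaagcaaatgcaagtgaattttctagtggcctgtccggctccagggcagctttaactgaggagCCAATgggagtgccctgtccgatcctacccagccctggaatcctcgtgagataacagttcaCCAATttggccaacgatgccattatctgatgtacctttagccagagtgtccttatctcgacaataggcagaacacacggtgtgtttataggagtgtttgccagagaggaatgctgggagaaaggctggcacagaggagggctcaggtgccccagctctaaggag

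The promoter table matched 24 of the 30 genes, with 31 windows. CCAAT stood in 14 of the 18 windows of synthesis enzymes, in 4 of the 6 windows of absorption and efflux genes, and in 37.4% of all 32851 windows in the table. CACNCCAC stood in 2 of the 18 synthesis windows, those of Acat2 and Hmgcs1, in none of the 6 absorption and efflux windows, and in 6.24% of all windows. Outside the enzymes it stood in the window of Insig1. A pair of direct GGTCA half-sites with starts 10 bases apart, the type of repeat read by LXR, was in none of the 31 windows and in 0.0761% of all. The windows of Abcg5 and of the second Abcg8 start overlap, since the genes lie head to head. The only CCAAT match of Abcg5 also lies in that Abcg8 window, so the same site is counted for both. These matches describe letters and not binding. Only exact letters were searched, so sites that vary from these patterns are neither counted nor in capitals. The Abca1 window holds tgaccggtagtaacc, which on the other strand differs from the GGTCA repeat by a single letter. The absence of a match therefore does not show that a site is absent, within the window or beyond it.

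Signals are given as log2 of the processed spot signal minus the array's 75th percentile, so that 1 unit is a 2-fold step and levels of different genes cannot be set against each other. The arrays' 75th percentile signals were 866 to 1454 and 65.2% to 69.1% of probes were well above background, with no saturated spot. All arrays shared 1 slide and 1 scan, but the slide positions followed the groups, so position and treatment cannot be told apart. Metformin 1 stood apart in markers of gut region. Fabp6, which carries bile acids inside ileal enterocytes, read 8.94 and 8.29 in the control pair against 4.16 (metformin 1) and 8.69 (metformin 2), and the bile acid transporter Slc10a2 4.45, 3.28, -0.90 and 4.92 in the same order. The duodenal and jejunal transcription factor Gata4 read 0.27 and 0.45 in the control pair against 2.32 (metformin 1) and -0.44 (metformin 2). These 3 markers were picked from their lists after their values were seen. Medians of the proximal small intestine markers, relative to the control mean, were 0.30, -0.30, 2.57 and -0.54 for control 1, control 2, metformin 1 and metformin 2. Of the 9 measured markers 7 were highest in metformin 1, against 38.5% of all genes, and the other 2, Cybrd1 and Slc40a1, were lowest there. The marker Pdx1 did not pass the filter. Medians of the 9 distal markers were 0.32, -0.32, -0.92 and 0.07. Of these 9, 6 were lowest in metformin 1, against 28.4% of all genes, and 2, Cubn and Amn, were highest there. The medians of the lists of cholesterol genes are therefore also given without metformin 1.

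None of the 30 genes passed the test between metformin and control. With limma and Benjamini-Hochberg adjustment, no gene of the whole array did (0%), every adjusted p being 1. Without adjustment 347 genes, 1.6% of those tested, had p under 0.05, and 0 of the 30. In 0 of the 30 did both metformin samples lie above both controls or both below them, against 12.3% of all genes above and 8.57% below. A change of at least 2-fold without overlap was seen in 0 of the 30 and in 2.95% of all genes. Of the 30, 9 had a positive difference and 21 a difference at or below 0, against 12467 and 9181 of all 21648 genes. Only Soat2 and Abca1 of the 30 had a difference larger than its SE, against 21.6% of all genes. The smallest unadjusted p among them was 0.33, for Soat2, with an adjusted p of 1. With 2 samples a group these values do not show that the genes were unaffected.

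**Figure D1:**
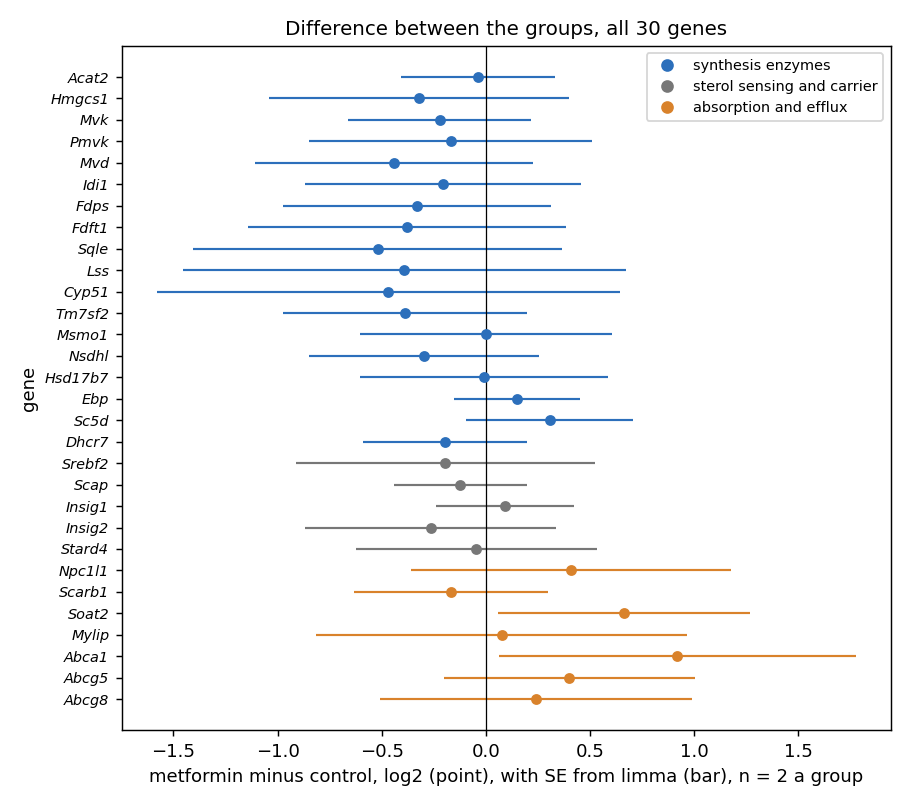
Difference between metformin and control for each of the 30 genes, on the log2 scale, with limma's standard error as the bar (n = 2 a group). Of the 18 synthesis enzymes, 16 points lie at or below 0, and of the 7 absorption and efflux genes 6 lie above 0. Of all 21648 genes tested, 12467 were above 0. Soat2 and Abca1 are the genes whose bar does not reach 0. Of all genes, 21.6% had a difference larger than its SE.

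The 2 metformin samples differed from each other in most of the 30 genes. The synthesis enzymes were mostly lowest in metformin 1 and highest in metformin 2, whereas the absorption and efflux genes were highest in metformin 1 and, except for Scarb1, close to control 2 in metformin 2. Metformin 1 had the lowest reading of the 4 samples in 15 of the 18 enzymes, against 28.4% of all genes, and metformin 2 the highest in 14 of the 18, against 19.8%. Both held at once in 13 of the 18, against 9.21% of all genes. In 13 enzymes metformin 2 was more than 2-fold above metformin 1, against 8.99% of all genes. The median gap between the 2 metformin samples over the 18 enzymes was 1.63, whereas control 2 exceeded control 1 by a median of 0.23. These samples were singled out after their values were seen, and a gap between 2 samples of a group has no replicate.

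The early enzymes carry acetyl-CoA to farnesyl diphosphate. Hmgcs1, which condenses acetyl-CoA units into HMG-CoA, read 5.06 and 5.26 in the control pair against 3.85 (metformin 1) and 5.82 (metformin 2). Its group means were 5.16 ± 0.14 in controls and 4.84 ± 1.39 with metformin (SD, n = 2), a difference of -0.32 (SE 0.72), so the spread within metformin was wider than the gap between the groups. Mevalonate is phosphorylated by Mvk and Pmvk and decarboxylated by Mvd. Mvk read 2.38 and 2.04 in the control pair against 1.51 (metformin 1) and 2.47 (metformin 2). Pmvk read 2.95, 3.17, 1.97 and 3.81 in that order, and Mvd 0.16, 0.49, -1.01 and 0.77. In each of these 3 kinase and decarboxylase genes metformin 1 was lowest and metformin 2 highest. The isomerase Idi1, which makes the reactive isoprene unit, read 2.84 and 3.25 in the control pair against 1.97 (metformin 1) and 3.71 (metformin 2). Fdps, which joins isoprene units to farnesyl diphosphate, read 3.40 and 3.64 in the control pair against 2.33 (metformin 1) and 4.04 (metformin 2). Acat2, the thiolase that feeds the pathway, did not follow the others, with -1.83 and -2.48 in the control pair against -2.37 (metformin 1) and -2.01 (metformin 2). Acat3 is a closely related copy, and whether the probe tells them apart was not tested. The differences of the 7 early enzymes lay between -0.44 and -0.04, with a median of -0.22, against a median of 0.06 for all genes.

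The largest gaps between the metformin samples lay in the squalene and lanosterol steps. Cyp51, which removes a methyl group from lanosterol, read -0.68 and 0.38 in the control pair against -2.13 (metformin 1) and 0.89 (metformin 2). That is 8.13-fold more in metformin 2 than in metformin 1, with the controls between them. Its group difference was -0.47 (SE 1.11), unadjusted p = 0.69 in limma's fit. Lss, which folds squalene epoxide into lanosterol, read -1.77 and -0.21 in the control pair against -2.70 (metformin 1) and -0.07 (metformin 2), a 6.2-fold gap between the metformin samples. Here the controls were far apart too, control 2 being close to metformin 2. Sqle, the epoxidase that is a rate-limiting step of the late pathway, read 3.74 and 3.93 in the control pair against 2.07 (metformin 1) and 4.57 (metformin 2), with metformin 2 5.65-fold above metformin 1 and the controls close together. Among the 18 enzymes Sqle had the most negative group difference, -0.52 (SE 0.89). Fdft1, which makes squalene, read 1.52 and 2.03 in the control pair against 0.36 (metformin 1) and 2.42 (metformin 2).

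Later ring enzymes showed smaller gaps. Msmo1, which oxidises the methyl groups at carbon 4, read 4.63 and 5.08 in the control pair against 4.09 (metformin 1) and 5.63 (metformin 2), and the metformin samples lay on either side of the controls, giving a group difference of 0.00 (SE 0.60). Its partners Nsdhl and Hsd17b7 had the same order of samples, at -0.42, -0.16, -1.29 and 0.11 and at 0.09, 0.64, -0.38 and 1.09 for control 1, control 2, metformin 1 and metformin 2. Tm7sf2, a sterol reductase, read 3.97 and 3.24 in the control pair against 2.54 (metformin 1) and 3.89 (metformin 2), lowest in metformin 1 and highest in control 1. Dhcr7, the reductase of the final step, read 0.30 and -0.13 in the control pair against -0.47 (metformin 1) and 0.26 (metformin 2). The isomerase Ebp differed little among samples, at 4.91, 4.55, 4.83 and 4.94 in that order. Sc5d, the desaturase that acts before Dhcr7, was the only enzyme with its highest reading in metformin 1, at 4.25 and 3.54 in the control pair against 4.46 (metformin 1) and 3.94 (metformin 2). Ebp and Sc5d were also the 2 enzymes with a positive group difference, 0.15 (SE 0.30) and 0.31 (SE 0.40). Dimmer probes of Fdft1 and Nsdhl were also lowest in metformin 1 but highest in control 1. Over the 11 squalene and ring enzymes the median difference was -0.30.

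**Figure D2:**
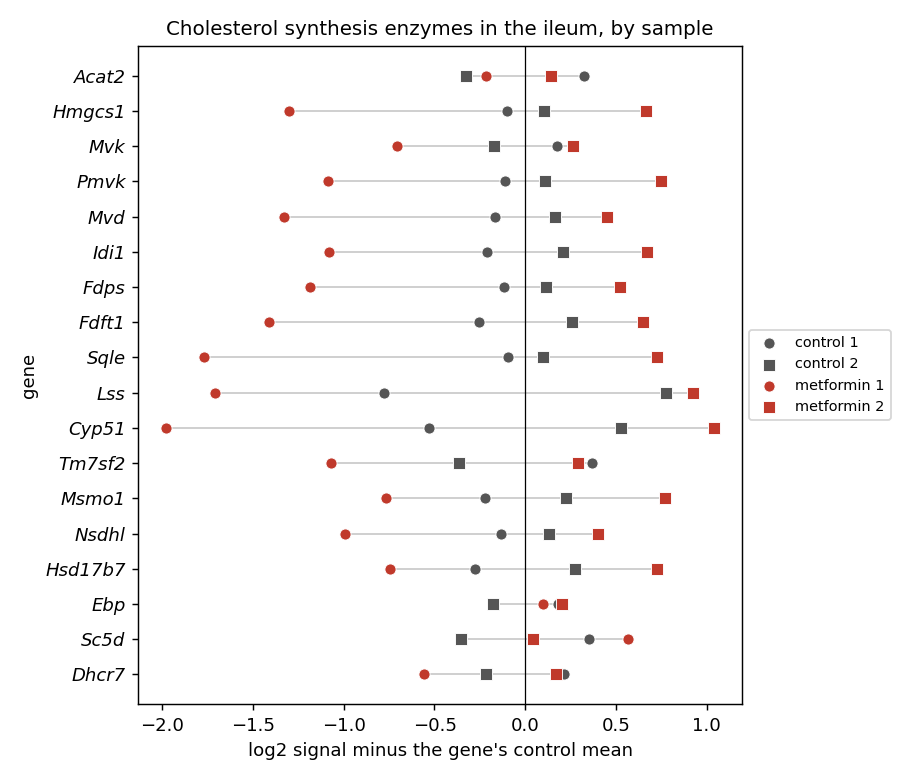
Signal of the 18 synthesis enzymes in each sample, on the log2 scale relative to the mean of its controls, with controls in grey and metformin in red (circle for sample 1, square for sample 2). Metformin 1 is the lowest point in 15 rows and metformin 2 the highest in 14, and both hold in 13. Acat2, Tm7sf2, Ebp, Sc5d and Dhcr7 are the other 5.

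Of the 4 sensing genes, only Srebf2 had metformin 1 lowest and metformin 2 highest, as most enzymes did, which makes 14 of the 30 genes. Srebf2, which encodes SREBP2, read -0.21 and 0.44 in the control pair against -1.01 (metformin 1) and 0.85 (metformin 2), so that metformin 2 was 3.64-fold above metformin 1. The group difference was -0.19 (SE 0.72). A dimmer Srebf2 probe had the same highest and lowest sample but a group difference of 0.05, of the opposite sign. Scap, the escort protein, read 2.41 and 2.75 in the control pair against 2.28 (metformin 1) and 2.63 (metformin 2). Insig1, whose product retains SCAP, read -1.53 and -1.24 in the control pair against -1.53 (metformin 1) and -1.06 (metformin 2). Readings of both genes varied by less than 0.50 over the 4 samples. Insig2, whose product also retains SCAP, was spread by the controls, with 3.36 and 1.76 in the control pair against 2.28 (metformin 1) and 2.31 (metformin 2). Stard4, a soluble carrier of cholesterol between membranes, read 3.67 and 2.36 in the control pair against 3.35 (metformin 1) and 2.59 (metformin 2), higher in both samples numbered 1 than in both samples numbered 2. A dimmer probe of Stard4 gave the reverse order, so its pattern is uncertain.

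Genes of absorption and uptake were highest in metformin 1. Npc1l1, the importer of lumenal cholesterol, read 5.04 and 3.76 in the control pair against 5.67 (metformin 1) and 3.95 (metformin 2), a group difference of 0.41 (SE 0.77). Metformin 2 lay within the range of the controls. Soat2, which esterifies absorbed cholesterol, read 4.40 and 3.89 in the control pair against 5.57 (metformin 1) and 4.05 (metformin 2). Its group means were 4.14 ± 0.35 in controls and 4.81 ± 1.08 with metformin (SD, n = 2), and the difference of 0.66 (SE 0.60) rested on metformin 1 alone. Mylip, a ubiquitin ligase that LXR induces and that removes lipoprotein receptors, read 1.33 and -0.43 in the control pair against 1.43 (metformin 1) and -0.38 (metformin 2), so that both samples numbered 1 lay above both numbered 2. A dimmer Mylip probe was highest in control 1 and gave a group difference of -0.40. Scarb1, a receptor for high-density lipoprotein, read -2.98 and -2.79 in the control pair against -2.50 (metformin 1) and -3.60 (metformin 2). Its dimmer probe was highest in metformin 2 and put the group difference at 0.45 in place of -0.17, so no direction is given for Scarb1.

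The 3 efflux genes were highest in metformin 1 as well. Abca1, which loads cholesterol onto apolipoprotein A-I, read 0.48 and -0.05 in the control pair against 2.31 (metformin 1) and -0.04 (metformin 2). Metformin 1 was 5.11-fold above metformin 2, whose reading was close to that of control 2, and the group difference was 0.92 (SE 0.86), unadjusted p = 0.34 in limma's fit. Abcg5 and Abcg8 form a single exporter that returns sterols to the gut lumen. Abcg5 read 6.08 and 5.03 in the control pair against 6.55 (metformin 1) and 5.35 (metformin 2). Abcg8 read 0.06 and -1.27 in the control pair against 0.43 (metformin 1) and -1.16 (metformin 2). The exporter's genes shared 1 order of samples, metformin 1 above control 1 above metformin 2 above control 2, and their group differences were 0.40 (SE 0.60) and 0.24 (SE 0.75). All 7 absorption and efflux genes, Mylip and Scarb1 only by their brighter probe, had their highest reading in metformin 1, against 38.5% of all genes, and 1 of 7, Scarb1, its lowest in metformin 2, against 16.7%. In all 7 metformin 1 was more than 2-fold above metformin 2, against 11.8% of all genes. The controls differed as well, with control 1 more than 2-fold above control 2 in 4 of the 7, Npc1l1, Mylip, Abcg5 and Abcg8. The share of all genes with such a gap between the controls was not counted. The median of control 2 minus control 1 was -1.05, beside -1.59 for metformin 2 minus metformin 1. Over all genes these medians were -0.13 and -0.10. In 6 of the 7, all but Scarb1, both samples numbered 1 lay above both numbered 2, an order found in 38.2% of all genes.

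**Figure D3:**
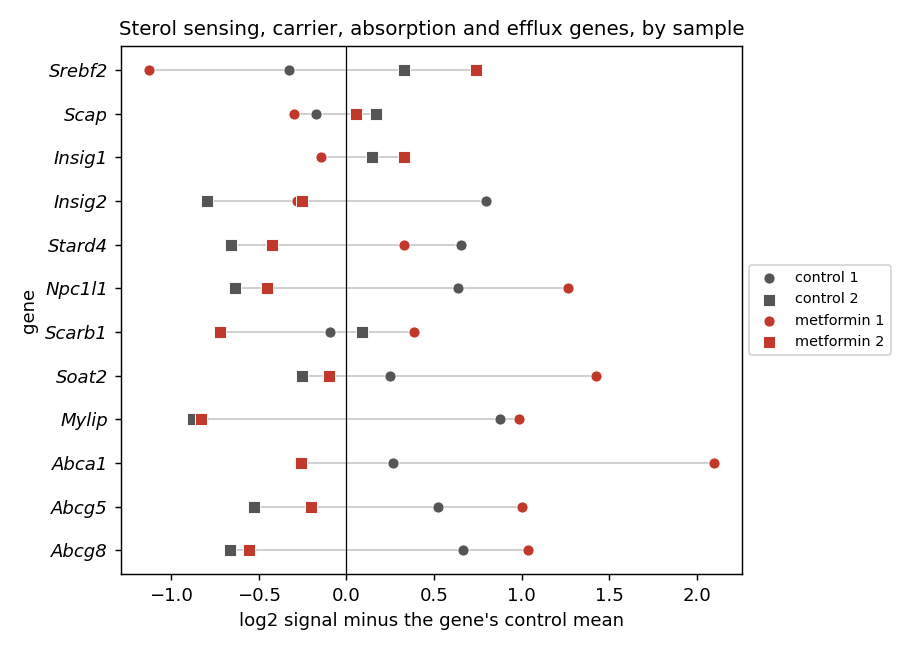
Signal of the 12 sensing, carrier, absorption and efflux genes in each sample, on the log2 scale relative to the mean of its controls (controls grey, metformin red, circle for sample 1, square for sample 2). Metformin 1 is the highest point for all 7 absorption and efflux genes and the lowest for Srebf2 and Scap.

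Synthesis and transport medians differed in sign in every sample. Transport is short here for the 7 absorption and efflux genes, among which Soat2 and Mylip do not carry sterols. Values are centred on the mean of the 2 controls, so control 2 mirrors control 1 and its sign is fixed by that of control 1. Relative to the control mean, the 18 enzymes had medians of -0.11, 0.11, -1.07 and 0.59 from control 1 through control 2 and metformin 1 to metformin 2, and the median of the 7 absorption and efflux genes was 0.52, -0.52, 1.04 and -0.45 in the same order. The synthesis median minus the transport median came to -0.64 and 0.64 in the control pair against -2.11 for metformin 1 and 1.04 for metformin 2. The 2 metformin values lay on either side of both controls. Between the groups the median difference was -0.26 for the enzymes (16 of 18 at or below 0) and 0.40 for the transport genes (6 of 7 higher), a contrast of -0.66. Of all 21648 genes, 12467 were higher and 9181 lower. Without metformin 1 all 18 enzymes were above the control mean and all 7 transport genes below it, with medians of 0.59 and -0.45 and a contrast of 1.04. Without metformin 2 the contrast was -2.11, with 16 of 18 enzymes lower and 7 of 7 transport genes higher. Leaving out metformin 1 turned the direction of both lists, and without control 2 the transport median turned as well, to -0.12. The contrast was -0.02 without control 2 and -1.27 without control 1. No direction with metformin can therefore be given for either list. In the fit without metformin 2, 8 of the 30 genes had an unadjusted p under 0.05, against 6.27% of all genes, and none passed adjustment, the single metformin sample being assumed to vary as the controls did.

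Some lists of gut region and cell type markers shared part of the order of samples seen in these lists, and others did not. The proximal markers were highest where transport genes were highest and synthesis enzymes lowest, in metformin 1 (list median 2.57). Markers of absorptive enterocytes had medians of 0.44, -0.44, 0.87 and 0.00 over the samples listed as above, in the same order of samples as the proximal markers except for the last pair. Cell cycle genes, which mark dividing crypt cells, had medians of -0.38, 0.38, -1.40 and -0.19, lowest in metformin 1 as the synthesis enzymes were, but not highest in metformin 2. General epithelial markers had medians between -0.17 and 0.28. The adipocyte list was lower in both metformin samples, with medians of -0.57, 0.57, -2.06 and -3.49. Of its 9 measured markers 7 lay below both controls in both metformin samples, against 8.57% of all genes, and Cidec and Pparg did not. Smooth muscle markers were high in control 1 alone, with medians of 2.34, -2.34, -3.45 and -2.55. Fibroblast markers had medians of 0.87, -0.87, -1.72 and -2.55 and macrophage markers -0.20, 0.20, 0.73 and 0.20. Of the hepatocyte list 4 of 8 and of the pancreatic acinar list 4 of 8 passed the filter, and the hepatocyte gene Alb and the acinar genes Pnlip and Cpa1 did not. The part of region or of cell composition in the values of the cholesterol genes was not tested. In a piece of tissue, fewer cells of a type and less RNA per cell cannot be told apart.

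**Figure D4:**
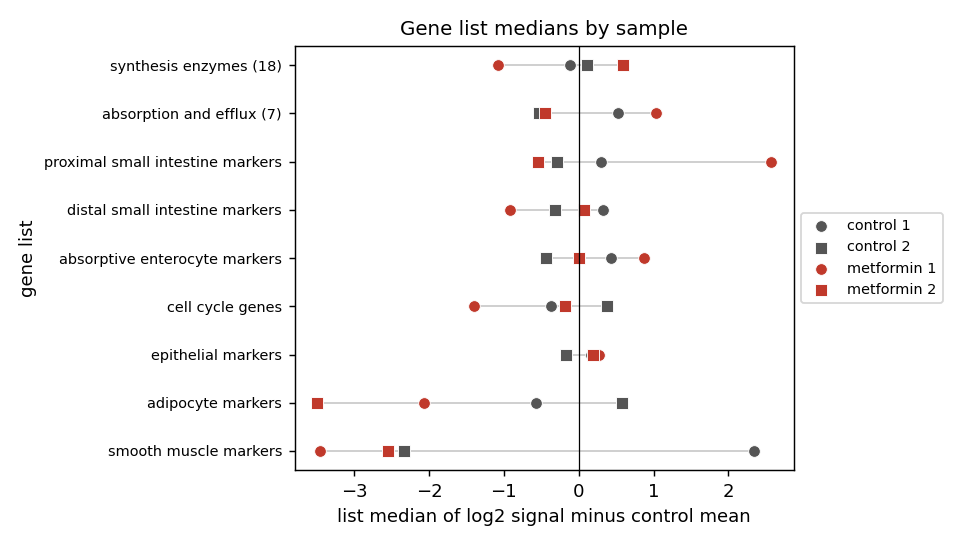
Median of each gene list in each sample, relative to the control mean on the log2 scale (controls grey, metformin red, circle for sample 1, square for sample 2). In metformin 1 the synthesis enzymes stand at -1.07, the absorption and efflux genes at 1.04, the proximal markers at 2.57 and the distal markers at -0.92.

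Other genes of the pathway were taken from 5 further lists, in which 0 genes passed adjustment. Their counts of higher and lower genes stand beside 12467 higher and 9181 lower among all 21648 genes. Of 15 measured genes of the isoprenoid branches and other sterol enzymes, 4 were higher and 11 lower, with a median difference of -0.05. The median was -0.25 in metformin 1 and 0.15 in metformin 2, so the sign turned without metformin 1. Their smallest p values belonged to Por, the electron donor of Cyp51 and Sqle, at 0.66 (SE 0.40), Tmem97, an SREBP2 target, at -0.35 (SE 0.37), and Cyb5r3, which reduces cytochrome b5, at 0.73 (SE 0.79). Por read 4.25 and 4.31 in the control pair against 5.37 (metformin 1) and 4.50 (metformin 2) and so was highest in metformin 1, unlike the enzymes it serves. Tmem97 was lowest there, at 1.63 and 1.84 in the control pair against 1.04 (metformin 1) and 1.73 (metformin 2).

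SREBP processing and sterol-regulated degradation held 11 measured genes, 9 higher and 2 lower, with a median of 0.11, which was 0.07 without metformin 1. Srebf1, the SREBP gene tied to fatty acid synthesis, read -1.48 and -1.72 in the control pair against -0.38 (metformin 1) and -1.53 (metformin 2), a difference of 0.64 (SE 0.48), which again lay in metformin 1 and ran against Srebf2. Faf2, of the endoplasmic reticulum's degradation machinery, differed by 0.34 (SE 0.28). Trafficking and storage genes were higher in 11 and lower in 5 of 16, with a median of 0.25, which was 0.06 without metformin 1. Npc1, which releases cholesterol from lysosomes, differed by 0.50 (SE 0.40), Soat1, the esterifying enzyme of most tissues, by -0.36 (SE 0.29), and the membrane-binding annexin Anxa2 by 0.31 (SE 0.28). Soat1 and its intestinal counterpart Soat2 thus had differences of opposite sign, neither past the test.

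Lipoprotein assembly and LXR genes were higher in 10 and lower in 2 of 12, against 12467 and 9181 of all 21648 genes. Of the 12, 11 had their highest reading in metformin 1, against 38.5% of all genes. The list's median difference of 0.35 became -0.07 without metformin 1, so no direction with metformin can be given for this list. Mttp, which lipidates apolipoprotein B, read 5.29 and 4.65 in the control pair against 6.12 (metformin 1) and 4.92 (metformin 2), a difference of 0.55 (SE 0.53). The LXR gene Nr1h2 read 3.65, 3.34, 4.18 and 3.50 in that order, and the apolipoprotein gene Apoe differed by 0.35 (SE 0.40). Among 6 oxysterol enzymes 2 were higher and 4 lower, with a median of -0.20, or -0.26 without metformin 1. Cyp7b1, an oxysterol hydroxylase, read -3.68 and -4.91 in the control pair against -5.78 (metformin 1) and -7.67 (metformin 2), below both controls in both metformin samples, with an unadjusted p of 0.035 and an adjusted p of 1 in limma's fit. Only 1 metformin array was well above background for it, so the size of its difference is uncertain. Ch25h, which makes an oxysterol that holds SREBP back, read -5.30 and -4.92 in the control pair against -6.21 (metformin 1) and -5.64 (metformin 2), also without overlap, at -0.82 (SE 0.36). Cyp39a1, another hydroxylase, differed by -0.39 (SE 0.35). The adipocyte, smooth muscle and fibroblast lists also had lower medians in both metformin samples than in either control, and their part in the Cyp7b1 and Ch25h values was not tested.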

How the data were processed

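Cy3-labelled cRNA from 4 ileum samples, 2 of each group, was hybridised to 1-colour arrays. The deposited scanner files hold spot intensity on a linear scale from Agilent Feature Extraction 10.7.3.1, per the file headers, whose processed signal is not scaled between arrays, and the scanner's flags for outlier spots and spots well above background. The deposited table's intensity equalled the raw median spot signal for all 39030 probes with 1 spot and served only as an alternative. Its scale is linear and unscaled, with column medians of 91, 112, 78 and 87.

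Processed signals were put on the log2 scale, outlier spots dropped, spots of a probe averaged and the array's 75th percentile over the probes subtracted. Accessions matched to RefSeq (GRCm38.p6) named 27508 of 39429 probes, and no gene coordinates other than promoter windows are given, as the array files carry another build. Probes well above background on both arrays of a group were kept (26440), and the brightest probe of a gene was tested, giving 21648 genes. Among the 30 members, 11 had several kept probes, which for 4 genes disagreed in direction. The two-sided test was limma 3.58.1 (lmFit, then eBayes; R 4.3.3), adjusted over all genes by Benjamini-Hochberg at 0.05. The members and gene lists were chosen with earlier results of these data known, so list counts are descriptions. Every member was accounted for, and up to 3 genes of smallest p were named from each other pathway list. The normexp alternative used median spot and background signals in place of the planned mean spot signal, which is not used here. The number of arrays limits the precision.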

Additional observations from a re-analysis of the deposited data

How the results depend on the processing

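With 2 samples a group, every one of the 30 genes changed sign when some sample was left out, and the differences without 1 sample spanned the following ranges on the log2 scale. For the early enzymes they were Acat2 -0.36 to 0.29, Hmgcs1 -1.30 to 0.66, Mvk -0.70 to 0.26, Pmvk -1.09 to 0.75, Mvd -1.33 to 0.45, Idi1 -1.08 to 0.67 and Fdps -1.19 to 0.52. Among the squalene and ring enzymes they were Fdft1 -1.41 to 0.65, Sqle -1.77 to 0.73, Lss -1.71 to 0.92, Cyp51 -1.98 to 1.04, Tm7sf2 -1.07 to 0.29, Msmo1 -0.77 to 0.77, Nsdhl -0.99 to 0.40, Hsd17b7 -0.74 to 0.73, Ebp -0.0306 to 0.33, Sc5d -0.0487 to 0.66 and Dhcr7 -0.56 to 0.17. Sensing and carrier genes gave Srebf2 -1.13 to 0.74, Scap -0.30 to 0.0545, Insig1 -0.15 to 0.33, Insig2 -1.06 to 0.53 and Stard4 -0.70 to 0.61, and absorption and efflux genes Npc1l1 -0.45 to 1.26, Scarb1 -0.72 to 0.39, Soat2 -0.0989 to 1.43, Mylip -0.83 to 0.98, Abca1 -0.26 to 2.10, Abcg5 -0.20 to 1.00 and Abcg8 -0.55 to 1.04. The median of the synthesis enzymes ranged from -1.07 without metformin 2 to 0.59 without metformin 1, that of the absorption and efflux genes from -0.45 without metformin 1 to 1.04 without metformin 2, and their contrast from -2.11 to 1.04. Under normexp, quantile normalization, the percentile over detected probes, the mean of a gene's probes and the scaled deposited table the synthesis median stayed between -0.32 and -0.21 and the other between 0.30 and 0.40. There the sign turned for Acat2 with quantile normalization (0.0313) and the deposited table (0.0049), and with the mean of probes for Scarb1 (0.14) and Mylip (-0.16). No gene passed adjustment under any alternative run. Genes at least 2-fold changed without overlap numbered 136 higher and 502 lower (21.3% higher), 13 and 116 with normexp (10.1%), 317 and 817 without a filter on dim probes (28.0%), 41 and 387 with detection on all 4 arrays (9.58%) and 22 and 198 in the deposited table (10.0%). Without 1 sample they ranged from 350 to 1537 higher and from 855 to 1779 lower. The causes were not tested. The samples share only a number. Deviations of control 1 and metformin 1 from their group means correlated at r = 0.56 across genes. With 2 samples a group, the samples numbered 2 mirror those numbered 1 and add no separate evidence. With the replicate number as a block in limma's fit, 1566 genes in place of 347 had an unadjusted p under 0.05 and 0 passed (smallest adjusted p = 0.63). The list medians were -0.26 and 0.40, as without the block.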
